A study of Sus scrofa with 4 samples.

Results

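The genes described here encode the factors that start, extend and end protein chains on the cytosolic ribosome. They were chosen by symbol alone: every gene whose symbol in the deposited files begins with EIF1 to EIF6, EEF1 or EEF2, or is ETF1 or GSPT1, with EIF1AY left out. This gave 59 of 35670 listed genes, among them enzymes and binding proteins that act on the factors, such as the EIF2AK kinases and the EIF4EBP repressors. RNA was sequenced from porcine fetal fibroblasts, cultured skin cells of pig fetuses that serve as nuclear donors in cloning. There were 2 libraries of cells with the genotype label BRG1-overexpressed, titled pTK-642-BRG1, and 2 control libraries with the genotype label WT, titled pTK-642. All 4 came from cells kept under serum starvation. The question was what extra BRG1, the ATPase of the BAF chromatin remodelling complex, does to such donor cells. The labels explain neither pTK-642 nor whether the libraries of a group came from separate cultures. The p-values therefore measure the spread between these libraries, which may be technical.

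In translation initiation, eIF2 brings the initiator tRNA to the small ribosomal subunit, eIF3 and eIF1 organise scanning of the messenger RNA, and the cap-binding protein eIF4E, the scaffold eIF4G and the helicase eIF4A recruit the message. Elongation then uses eEF1A to deliver tRNAs and eEF2 to move the ribosome along. Cells slow initiation in response to stress or lack of growth factors through the eIF2 kinases and through 4E-BP proteins, which hold eIF4E away from eIF4G, and they slow elongation through the kinase of eEF2.

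Gene counts summed to between 34486400 and 38126860 per library. SMARCA4, which encodes BRG1, had 159 and 163 CPM (read counts scaled to library size with TMM factors) in the BRG1-labelled libraries, against 154 and 179 CPM in the controls. These values overlapped (log2 fold change -0.04 ± 0.11, SE, adjusted p = 0.765, quasi-likelihood F test in edgeR, Benjamini-Hochberg adjustment). This gene therefore gives no check of the labels, and every direction given here is that of a library labelled BRG1 set against one labelled WT. Of 9 fibroblast markers 8 were in the files. They summed to 35340 and 35390 CPM in the BRG1-labelled libraries and to 24760 and 28060 CPM in the controls. The markers did not move together. COL1A1, COL1A2, DCN, LUM and PDGFRA were higher in both BRG1-labelled libraries, VIM and COL3A1 were lower, and PDGFRB overlapped. COL1A1 had 10124 and 10274 CPM in the BRG1-labelled libraries, against 4389 and 5504 CPM in the controls. VIM had 5686 and 5628 CPM in the BRG1-labelled libraries, against 6953 and 6726 CPM in the controls. Marker lists of keratinocytes, endothelial cells, leukocytes, melanocytes with Schwann cells, and skeletal muscle summed to at most 9.24 CPM per list in a library labelled BRG1 and at most 6.20 CPM in a control, and KRT5, TEK, PTPRC and MYOD1 had no reads. Reads outside annotated genes made up 10.4% ± 0.19 of all reads listed in the BRG1-labelled libraries and 6.73% ± 0.87 in the controls (SD, n = 2 each). The part of these differences in the results was not tested. In bulk RNA, fewer cells of a kind and less RNA per cell cannot be told apart.

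Translation factor genes were more often lower than higher in the BRG1-labelled libraries. Of the 59 genes 58 passed the filter on low counts. An adjusted p below 0.05 was reached by 24 of them as lower (41.4%, where 23.6% of all 14617 genes tested were lower) and by 6 as higher (10.3%, against 21% of all genes), so that 51.7% passed in either direction, beside 44.6% of all genes. The median log2 fold change of the 58 genes was -0.26, beside 0.02 for all genes tested. Over all genes tested the log2 fold change fell with level (Spearman correlation -0.28), and over the 58 genes the correlation was -0.12. This trend with level was not removed. Its part in the median and in the share of lower genes was not tested. Changes were small: 2 genes, EIF6 and EIF4EBP1, passed the test with at least a 2-fold difference (3.45%, against 14.9% of all genes). In 36 genes (62.1%) both BRG1-labelled libraries lay below both controls, and in 8 (13.8%) above, where the shares of all genes were 35.7% and 37.5%, or 73.2% in either direction. Together the 59 genes took up 2.57% ± 0.02 of gene counts in the BRG1-labelled libraries and 3.04% ± 0.19 in the controls (SD, n = 2 each). The gene not tested, EIF4E1B, known from mouse as an eIF4E of the egg cell, had 3 and 10 reads in the BRG1-labelled libraries and 1 and 0 reads in the controls.

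**Figure D1:**
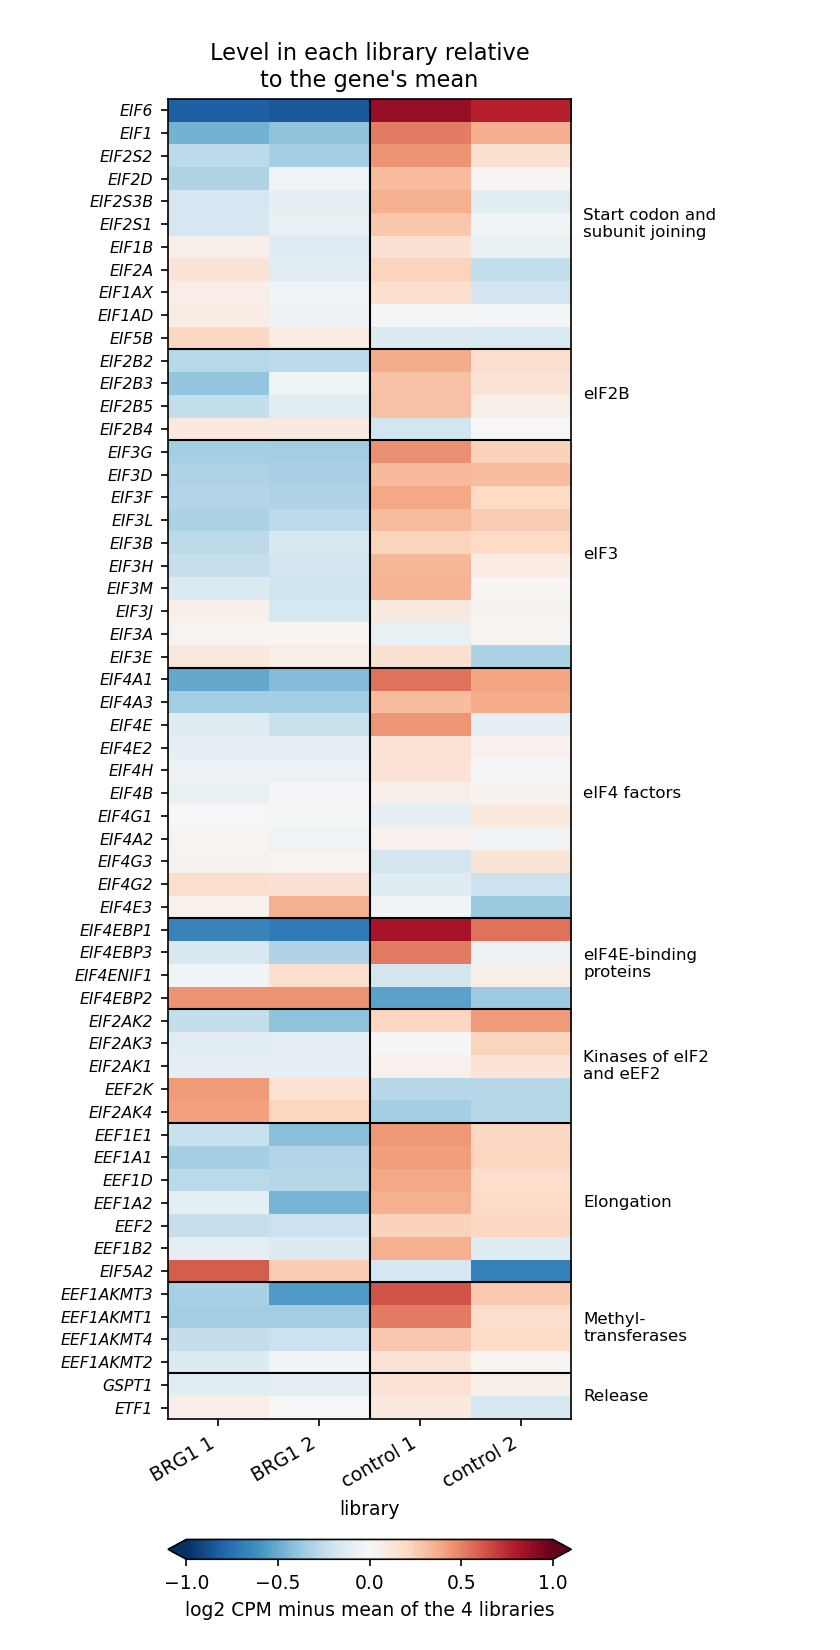
Level of each of the 58 genes tested in each library (columns, BRG1-labelled libraries left of the controls), as log2 CPM minus the gene's mean over the 4 libraries, with genes grouped by role and ordered by log2 fold change. EIF6 and EIF4EBP1 show the deepest contrast downwards, EIF4EBP2 is high in both BRG1-labelled libraries, and control 1 lies above control 2 in 47 of the 58 genes.

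The controls differed from each other in these genes more than the BRG1-labelled libraries did. Control 1 lay above control 2 in 47 of 58 translation factor genes (81%), beside 51.5% of all genes tested, with a median log2 ratio of control 1 to control 2 of 0.15. Between BRG1-labelled libraries 1 and 2 the median log2 ratio was 0.01. A fit with 1 library left out takes its spread from the group that keeps both libraries. Over all genes the chi-square per degree of freedom was 5.34 in the BRG1-labelled pair and 40.15 in the controls. P-values and counts of fits without a control therefore do not carry the spread of the controls. Without control 2 the median log2 fold change was -0.46, with 36 genes lower and 8 higher, where 28% and 23.8% of all genes were. Without control 1 it was -0.16, with 26 genes lower and 11 higher, where 24.2% and 21.3% of all genes were. With 1 library labelled BRG1 left out the lower genes numbered 15 (without library 1) or 16, and the higher ones 3 or 4. In those fits 14.3% or 14.8% of all genes were lower and 12.6% or 13% higher. Scaling by library size without TMM factors raised the median over all genes by 0.23 on the log2 scale. Then 17 of the 58 genes were lower and 12 higher, where 14.6% of all genes were lower and 33% higher, and the median of the 58 was -0.03. The median of the 58 genes minus that of all genes was -0.28 under both scalings.

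**Figure D2:**
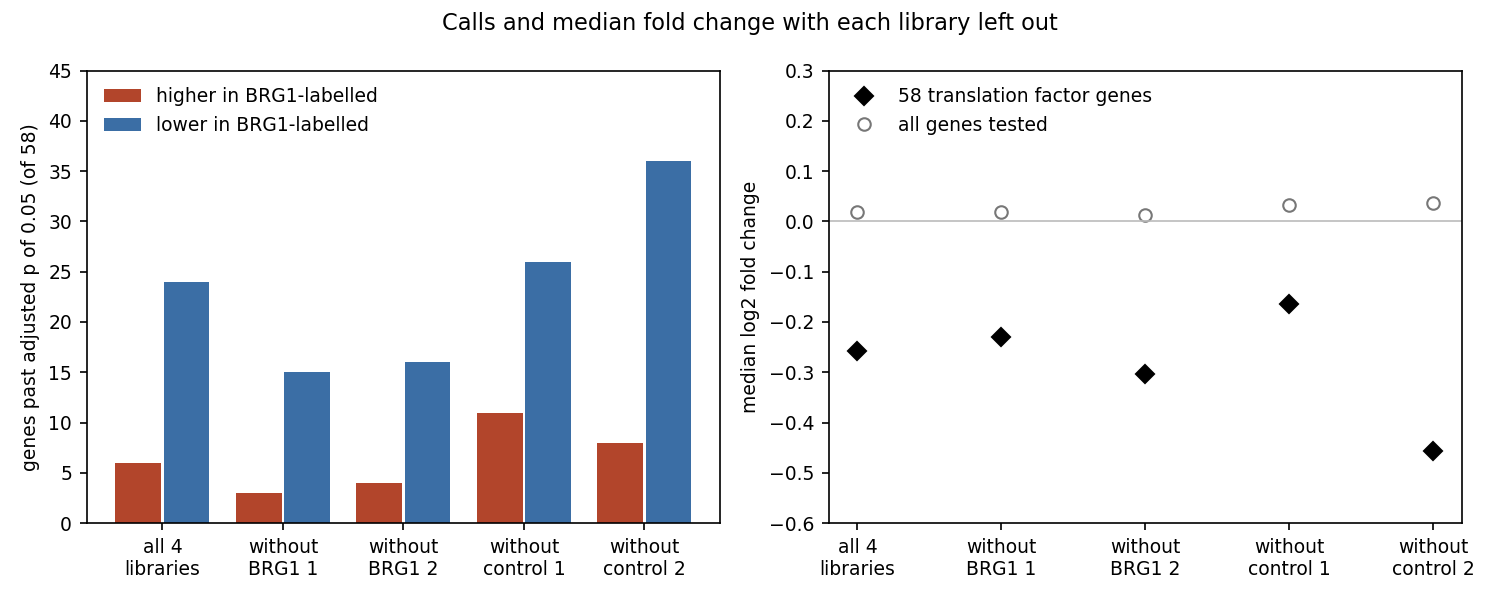
Left, number of the 58 genes past an adjusted p of 0.05 as higher or lower in the BRG1-labelled libraries, with all 4 libraries and with each left out in turn. Right, median log2 fold change of the 58 genes (diamonds) and of all genes tested (circles) in the same fits. Lower genes outnumber higher ones in each fit, as they also do among all genes tested. The median of the 58 genes runs from -0.46 to -0.16.

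Among factors of start codon selection and subunit joining, 4 of 11 genes fell and 1 rose, where 23.6% and 21% of all genes did. EIF6 (ENSSSCG00000022864; RefSeq on Sscrofa11.1, chromosome 17, 38638295 to 38643918) encodes a protein that keeps the large ribosomal subunit from joining the small one too early and is needed to make that subunit. It had 111 and 109 CPM in the BRG1-labelled libraries, against 358 and 335 CPM in the controls. The level was 0.318 times that of the controls, the lowest ratio among the 58 genes, and the groups lay far apart (log2 fold change -1.65 ± 0.10, adjusted p = 1.18e-08). EIF1 (ENSSSCG00000017430; chromosome 12, 20974498 to 20977075), which guards the choice of start codon during scanning, had 265 and 279 CPM in the BRG1-labelled libraries, against 524 and 472 CPM in the controls (-0.87 ± 0.11, adjusted p = 1.08e-05). After removing the trend that each library's counts show with gene span in the genome, its value was -0.51. Its close relative EIF1B had 25.9 and 22.9 CPM in the BRG1-labelled libraries and 27.9 and 23.8 CPM in the controls, with overlapping groups (-0.08 ± 0.14, adjusted p = 0.654).

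The eIF2 subunits did not all pass. EIF2S2, the beta subunit, had 109 and 104 CPM in the BRG1-labelled libraries, against 178 and 145 CPM in the controls (-0.60 ± 0.11, adjusted p = 0.000528). Its RefSeq interval overlaps that of ASIP by 19088 bases, and the strand setting of the counting is unknown, so reads of overlapping genes may be mixed. EIF2S1, the alpha subunit that the eIF2 kinases phosphorylate, had 31.6 and 33.6 CPM in the BRG1-labelled libraries, against 42.7 and 34.8 CPM in the controls (-0.25 ± 0.13, adjusted p = 0.127). The gene listed as EIF2S3B had overlapping groups (-0.27 ± 0.13, adjusted p = 0.119), with 58.1 and 61.5 CPM in the BRG1-labelled libraries and 83.3 and 60.4 CPM in the controls. EIF5B, a GTPase that joins the subunits, was the member of this group that rose, with 138 and 127 CPM in the BRG1-labelled libraries, against 109 and 108 CPM in the controls (0.29 ± 0.10, adjusted p = 0.0292). That call was lost without BRG1-labelled library 1 (0.23, adjusted p = 0.425), without library 2 (0.35, adjusted p = 0.186) and after removal of that span trend (0.13, adjusted p = 0.265). EIF2D, which can place initiator tRNA without eIF2, passed just inside the threshold (-0.34 ± 0.13, adjusted p = 0.0453), with 33.6 and 40.1 CPM in the BRG1-labelled libraries, against 51.5 and 42.0 CPM in the controls. It lost the call in 8 of 13 alternative settings, the most of any gene called, with values from -0.50 to -0.12 over the 13. Those 8 included the fits without control 1 (-0.19) and without either BRG1-labelled library. EIF1AX, EIF1AD and EIF2A had log2 fold changes between 0.00 and 0.03 and did not pass. EIF1AX has a close copy in EIF1AY, so its reads may be divided. The median log2 fold change of this group was -0.40 without control 2 and -0.02 without control 1.

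**Figure D3:**
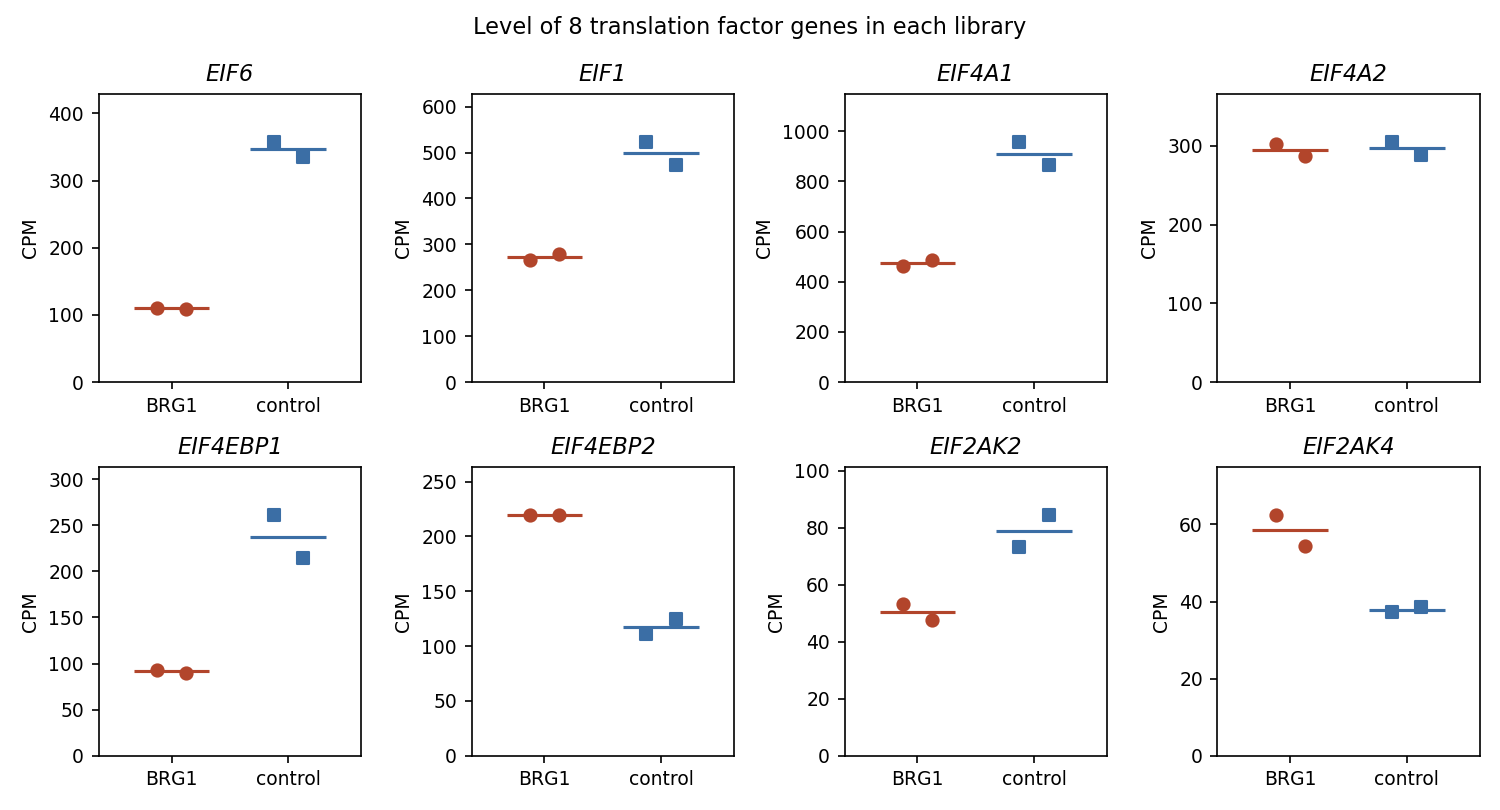
CPM of 8 genes in each library, with the BRG1-labelled libraries left of the controls (points, libraries 1 and 2 of a group from left to right; lines, group means; axes start at 0). The genes were chosen with earlier results known. In 7 of the 8 the groups do not overlap, nor do they in 73.2% of all genes tested. EIF4EBP2 and EIF2AK4 are higher in the BRG1-labelled libraries. EIF4A2 overlaps.

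eIF2B, the exchange factor that reloads eIF2 with GTP and is blocked when eIF2 is phosphorylated, fell in 3 of its 4 measured subunits. Of all genes tested 23.6% fell. EIF2B2 had 29.4 and 29.7 CPM in the BRG1-labelled libraries, against 46.1 and 40.1 CPM in the controls (-0.54 ± 0.12, adjusted p = 0.00184). EIF2B5, the catalytic subunit, had 55.3 and 61.0 CPM in the BRG1-labelled libraries, against 80.4 and 68.5 CPM in the controls (-0.36 ± 0.11, adjusted p = 0.0179). EIF2B3 had 12.9 and 16.5 CPM in the BRG1-labelled libraries, against 20.8 and 18.7 CPM in the controls (-0.43 ± 0.16, adjusted p = 0.0367). All 3 had non-overlapping groups, but the calls of EIF2B5 (adjusted p = 0.3) and EIF2B3 (adjusted p = 0.421) were lost without BRG1-labelled library 1, that of EIF2B5 also without library 2 (adjusted p = 0.0877), and both with scaling by library size alone. After removal of the span trend EIF2B5 was at -0.19 (adjusted p = 0.147) and EIF2B3 at -0.71. EIF2B4 stood on the other side, with 44.03 and 43.76 CPM in the BRG1-labelled libraries and 36.2 and 41.1 CPM in the controls, and did not pass (0.18 ± 0.11, adjusted p = 0.211). It passed as higher with library size alone (0.41, adjusted p = 0.00947) and after removal of the span trend (0.43, adjusted p = 0.00449). Its value was 0.26 without control 2 and 0.09 without control 1. RefSeq intervals of EIF2B2 and ACYP1 overlap by 25882 bases.

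eIF3, the large scaffold on the small ribosomal subunit, fell in 7 of 10 measured subunits and rose in none past the threshold. Of all genes tested 23.6% fell and 21% rose. Summed over the 10 genes the level of eIF3 was 1986 ± 6.48 CPM in the BRG1-labelled libraries and 2563 ± 153 CPM in the controls (SD, n = 2 each). EIF3G had 204 and 203 CPM in the BRG1-labelled libraries, against 355 and 303 CPM in the controls (-0.69 ± 0.11, adjusted p = 0.000107). EIF3D, a subunit with cap-binding activity in human cells, had 190 and 187 CPM in the BRG1-labelled libraries, against 294 and 291 CPM in the controls (-0.63 ± 0.10, adjusted p = 0.000112). EIF3F had 173 and 172 CPM in the BRG1-labelled libraries, against 277 and 242 CPM in the controls (-0.59 ± 0.10, adjusted p = 0.000334). None of these groups overlapped. EIF3L, a subunit of the outer part of the complex, had 283 and 295 CPM in the BRG1-labelled libraries, against 439 and 421 CPM in the controls (-0.57 ± 0.10, adjusted p = 0.000344). EIF3B, EIF3H and EIF3M fell by between 0.36 and 0.42 on the log2 scale. The other subunits did not pass. EIF3A, the largest subunit and a core scaffold of the complex, had 417 and 416 CPM in the BRG1-labelled libraries and 390 and 417 CPM in the controls (0.05 ± 0.10; 95% interval -0.17 to 0.27, adjusted p = 0.738). EIF3E had 225 and 218 CPM in the BRG1-labelled libraries and 233 and 168 CPM in the controls, so that the groups overlapped (0.14 ± 0.13, adjusted p = 0.398, and 0.39 without control 1). EIF3J, a loosely bound subunit, had a log2 fold change of -0.12 ± 0.12 (adjusted p = 0.414).

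EIF3I, named for its identifier by the gene name table and not by the files, was not among the 59 genes. It had 58.1 and 60.1 CPM in the BRG1-labelled libraries, against 111 and 104 CPM in the controls (-0.86 ± 0.10, adjusted p = 7.39e-06). The number of eIF3 genes past the threshold depended on the libraries and on the scaling. With library size alone 4 fell and 2, EIF3E and EIF3A, rose, where 14.6% and 33% of all genes did. The median of the 10 eIF3 genes was -0.42 with all libraries, -0.39 without BRG1-labelled library 1 and -0.46 without library 2. EIF3B, EIF3H and EIF3M did not pass with library size alone or without either BRG1-labelled library, and EIF3M also without control 1. EIF3L lost its call without BRG1-labelled library 1 (-0.54, adjusted p = 0.0636). EIF3G, EIF3D and EIF3F were called as lower in all 13 alternative settings, although EIF3G after removal of the span trend was at -0.43 and EIF3F at -0.37.

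In the eIF4 group, which binds the cap and unwinds the message, 2 of 11 genes fell and 1 rose (23.6% and 21% of all genes did). EIF4A1 (ENSSSCG00000017957; chromosome 12, 52868479 to 52874248), the main cytosolic RNA helicase of initiation, had 462 and 487 CPM in the BRG1-labelled libraries, against 959 and 864 CPM in the controls (-0.94 ± 0.11, adjusted p = 6.94e-06). Its paralog EIF4A2 had 302 and 287 CPM in the BRG1-labelled libraries and 306 and 289 CPM in the controls (-0.01 ± 0.10; 95% interval -0.23 to 0.20, adjusted p = 0.931). EIF4A3, a related helicase that belongs to the exon junction complex rather than to initiation, had 93.2 and 93.3 CPM in the BRG1-labelled libraries, against 146 and 153 CPM in the controls (-0.68 ± 0.10, adjusted p = 5.58e-05). The groups overlapped for EIF4A2 but not for the other helicases. Reads shared by EIF4A1, EIF4A2 and their processed copies in the genome cannot be told apart from these counts.

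Of the scaffold and cap-binding genes 1 passed. EIF4G2, an eIF4G relative that lacks the eIF4E-binding part and serves initiation without it, had 1571 and 1546 CPM in the BRG1-labelled libraries, against 1280 and 1198 CPM in the controls (0.33 ± 0.11, adjusted p = 0.0231). That call was lost without BRG1-labelled library 1 (adjusted p = 0.376) or library 2 (adjusted p = 0.344), with values of 0.32 and 0.34, and the value was 0.56 with library size alone. EIF4G1, the main scaffold, had 626 and 624 CPM in the BRG1-labelled libraries and 595 and 673 CPM in the controls (-0.02 ± 0.11; 95% interval -0.25 to 0.21, adjusted p = 0.898). The value of EIF4G1 was -0.11 without control 1 and 0.05 without control 2. EIF4E, the cap-binding protein, lay just outside the threshold, with 40.5 and 37.7 CPM in the BRG1-labelled libraries, against 59.9 and 41.1 CPM in the controls (-0.37 ± 0.15, adjusted p = 0.0543). Its value was -0.63 without control 2 and -0.08 without control 1. After removal of the span trend EIF4E passed as lower (-0.50, adjusted p = 0.00704). EIF4E3, which in mouse and human binds the cap in a different manner, had 13.9 and 17.3 CPM in the BRG1-labelled libraries, against 13.3 and 10.5 CPM in the controls (0.39 ± 0.17, adjusted p = 0.0728). EIF4E3 passed as higher with library size alone (0.62, adjusted p = 0.00737), and its value was 0.57 without control 1. EIF4B, EIF4H, EIF4E2 and EIF4G3 had log2 fold changes between -0.19 and 0.05 and did not pass. The median of the 11 genes was -0.08, and 0.14 with library size alone, where that of all genes was 0.24. Without control 2 the median of the 11 genes was -0.11.

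Of 4 genes for proteins that bind and restrain eIF4E, 1 fell and 1 rose, where 23.6% and 21% of all genes did. EIF4EBP1 (ENSSSCG00000022301; chromosome 15, 48423001 to 48443373), the best known target of the kinase mTOR among them, had 93.3 and 90.0 CPM in the BRG1-labelled libraries, against 261 and 214 CPM in the controls (-1.37 ± 0.11, adjusted p = 2.11e-07). EIF4EBP2 (ENSSSCG00000034444; chromosome 14, 73323609 to 73355443), whose RefSeq interval overlaps that of NODAL by 5086 bases, had 219 and 219 CPM in the BRG1-labelled libraries, against 111 and 124 CPM in the controls (0.90 ± 0.10, adjusted p = 6.08e-06). Neither pair of groups overlapped, and both calls held in all 13 alternative settings, with values from -1.53 to -1.15 for EIF4EBP1 and from 0.81 to 1.13 for EIF4EBP2. EIF4EBP3 had 8.31 and 7.51 CPM in the BRG1-labelled libraries, against 13.3 and 8.88 CPM in the controls (-0.49 ± 0.20, adjusted p = 0.0604). Its value was -0.77 without control 2 and -0.17 without control 1. EIF4ENIF1, which carries eIF4E into the nucleus and to sites of message storage, had 33.3 and 37.9 CPM in the BRG1-labelled libraries and 29.9 and 35.4 CPM in the controls, with overlapping groups (0.13 ± 0.13, adjusted p = 0.457).

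Ratios of read counts within a library do not depend on how libraries are scaled. They do depend on gene length, so only their differences between libraries can be read. For EIF4EBP1 over EIF4EBP2 the ratio was 0.425 and 0.410 in the BRG1-labelled libraries, against 2.36 and 1.72 in the controls. For EIF4EBP1 over EIF4E it was 2.31 and 2.38 in the BRG1-labelled libraries, against 4.36 and 5.21 in the controls, and for EIF4EBP2 over EIF4E it was 5.42 and 5.81 in the BRG1-labelled libraries, against 1.85 and 3.03 in the controls. Relative to eIF4E, one repressor gene was thus lower and the other higher in both BRG1-labelled libraries. For EIF4A1 over EIF4A2 the ratio was 1.53 and 1.70 in the BRG1-labelled libraries, against 3.14 and 2.99 in the controls, and for EIF1 over EIF1B it was 10.3 and 12.2 in the BRG1-labelled libraries, against 18.8 and 19.8 in the controls. The groups did not overlap for any of these 5 ratios, nor for 8 more of the 16 pairs formed. The pairs were chosen with earlier results known, and the levels of 73.2% of all genes did not overlap either, so the count of pairs is a description. An exact permutation test of 2 libraries against 2 cannot go below p = 0.333, so the ratios were not tested.

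**Figure D4:**
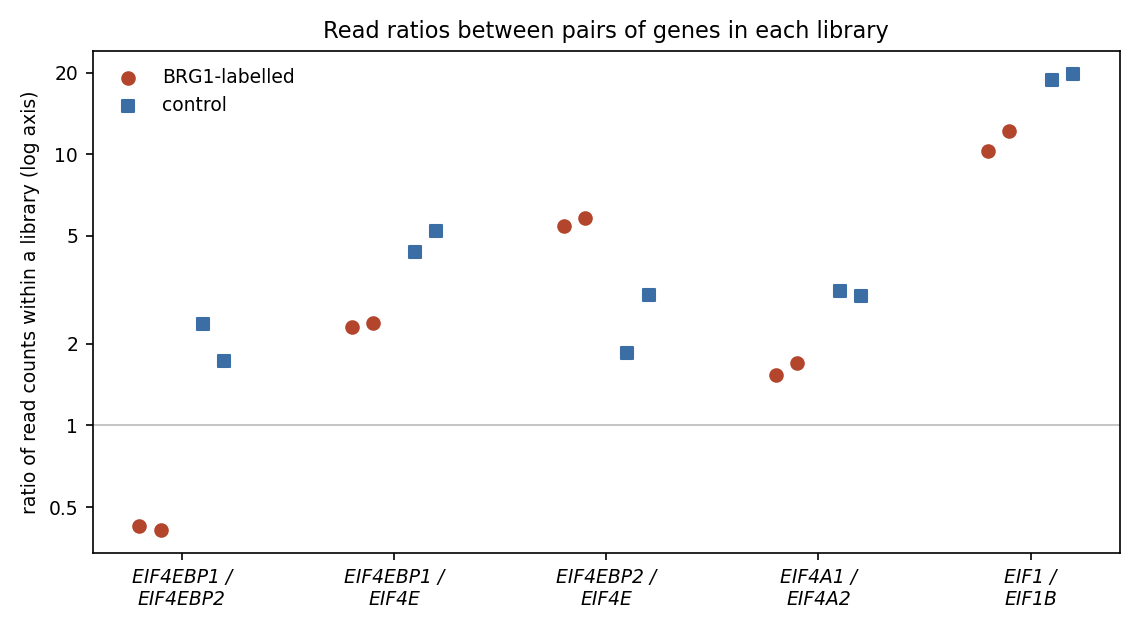
Ratio of read counts of 2 genes within each library for 5 pairs, on a log axis, with the BRG1-labelled libraries (circles) left of the controls (squares). The groups do not overlap for any of these pairs, and EIF4EBP1 over EIF4EBP2 is 0.425 and 0.410 in the BRG1-labelled libraries, against 2.36 and 1.72 in the controls. The height of a ratio depends on gene length and cannot be read between pairs.

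Kinases that switch translation down also changed in both directions, with 2 of 5 higher and 1 lower (21% and 23.6% of all genes were). EIF2AK2 encodes PKR, the kinase activated by double-stranded RNA, known as an interferon-induced gene. It had 53.3 and 47.5 CPM in the BRG1-labelled libraries, against 73.0 and 84.4 CPM in the controls (-0.64 ± 0.11, adjusted p = 0.000302). EIF2AK4 (ENSSSCG00000039061; chromosome 1, 131244818 to 131355240) encodes GCN2, the sensor of amino acid shortage. It had 62.4 and 54.5 CPM in the BRG1-labelled libraries, against 37.2 and 38.7 CPM in the controls (0.63 ± 0.11, adjusted p = 0.000382). EEF2K (chromosome 3, 23887120 to 23980231), the kinase that inactivates eEF2, had 40.1 and 32.9 CPM in the BRG1-labelled libraries, against 24.5 and 24.5 CPM in the controls (0.57 ± 0.13, adjusted p = 0.00245), a call lost without BRG1-labelled library 1 (0.43, adjusted p = 0.125). Both genes that rose are long, with spans of 110423 bases for EIF2AK4 and 93112 bases for EEF2K. After removal of the span trend EIF2AK4 was at 0.39 (adjusted p = 0.00624) and EEF2K at 0.37 (adjusted p = 0.0206).

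The other eIF2 kinases lay lower in both BRG1-labelled libraries without passing. EIF2AK3, which encodes PERK, the kinase of the unfolded protein response in the endoplasmic reticulum, had 86.4 and 87.4 CPM in the BRG1-labelled libraries, against 92.6 and 109 CPM in the controls (-0.21 ± 0.11, adjusted p = 0.118). EIF2AK1, the heme-regulated kinase HRI, had 50.6 and 50.9 CPM in the BRG1-labelled libraries, against 55.8 and 59.5 CPM in the controls (-0.18 ± 0.10, adjusted p = 0.166). With library size alone both values were above 0 (0.01 and 0.04), and without control 1 they were -0.34 and -0.24. Both passed as lower after removal of the span trend (-0.39, adjusted p = 0.00306, and -0.26, adjusted p = 0.0402). Then 3 of the 5 kinase genes were lower and 2 higher, where 27.3% and 19.4% of all genes with a span were. RefSeq intervals of EIF2AK1 overlap those of ANKRD61 and AIMP2, and that of EIF2AK4 overlaps SRP14 by 2876 bases.

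Among 7 elongation factor genes 4 fell and 1 rose, where 23.6% and 21% of all genes did. EEF1A1 (ENSSSCG00000004489; chromosome 1, 92421235 to 92425053), the tRNA carrier and the member with the most reads, took up 1.18% ± 0.03 of all gene counts in the BRG1-labelled libraries and 1.57% ± 0.14 in the controls (SD, n = 2 each). Its level was 10741 and 11116 CPM in the BRG1-labelled libraries, against 18164 and 15776 CPM in the controls (-0.63 ± 0.13, adjusted p = 0.000956). EEF2 (ENSSSCG00000025675; chromosome 2, 74746541 to 74756687), the translocase, had 3831 and 3874 CPM in the BRG1-labelled libraries, against 5271 and 5193 CPM in the controls (-0.44 ± 0.12, adjusted p = 0.00591). In both genes the groups lay apart. The value of EEF1A1 changed little without BRG1-labelled library 1 or 2 (-0.61 and -0.66), but it no longer passed (adjusted p = 0.181 and 0.137), nor did EEF2 (-0.43 and -0.45, adjusted p = 0.302 and 0.275). After removal of the span trend EEF1A1 was at -0.34 and EEF2 at -0.27, both past the threshold. Fewer genes of the group passed as lower without BRG1-labelled library 1 or 2, as held for all genes tested. The median of the group was then -0.57 or -0.45. With library size alone EEF2 did not pass (-0.22, adjusted p = 0.124). EEF1A1 has many processed copies in mammalian genomes, so some of its reads may have been dropped or counted elsewhere.

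Of the genes for the exchange complex of eEF1A, 1 passed. EEF1D, a subunit of that complex, had 198 and 196 CPM in the BRG1-labelled libraries, against 312 and 269 CPM in the controls (-0.56 ± 0.11, adjusted p = 0.000581). EEF1B2, another subunit, had 560 and 541 CPM in the BRG1-labelled libraries and 762 and 549 CPM in the controls, so that control 2 lay within the range of the BRG1-labelled libraries (-0.25 ± 0.14, adjusted p = 0.147). The 95% intervals of EEF1D (-0.79 to -0.34) and EEF1B2 (-0.54 to 0.04) overlap, and their difference was not tested. The value of EEF1B2 was -0.48 without control 2 and -0.0037 without control 1. EEF1E1, a small protein of the tRNA synthetase complex, had 14.2 and 12.4 CPM in the BRG1-labelled libraries, against 22.3 and 19.1 CPM in the controls (-0.64 ± 0.15, adjusted p = 0.00287), and lost the call without BRG1-labelled library 2 (-0.55, adjusted p = 0.0609). EIF5A2, the less common form of the factor that carries the modified amino acid hypusine, went against the group with 14.3 and 11.11 CPM in the BRG1-labelled libraries, against 8.28 and 5.89 CPM in the controls (0.84 ± 0.20, adjusted p = 0.00322). EEF1A2, the eEF1A of adult muscle and neurons, had few reads, between 63 and 104 in a library, with 2.19 and 1.68 CPM in the BRG1-labelled libraries and 2.97 and 2.68 CPM in the controls (-0.54 ± 0.34, adjusted p = 0.209).

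All 4 measured methyltransferases of eEF1A lay lower in both BRG1-labelled libraries, and 2 of them passed (35.7% and 23.6% of all genes did). EEF1AKMT3 had 12.5 and 10.6 CPM in the BRG1-labelled libraries, against 24.2 and 18.7 CPM in the controls (-0.90 ± 0.16, adjusted p = 0.000428). Its RefSeq interval overlaps that of TSFM by 13923 bases. EEF1AKMT1 had 31.2 and 31.4 CPM in the BRG1-labelled libraries, against 56.5 and 44.9 CPM in the controls (-0.70 ± 0.13, adjusted p = 0.000399). RefSeq intervals of EEF1AKMT1 and IL17D overlap by 11271 bases. EEF1AKMT4 had 5.46 and 5.53 CPM in the BRG1-labelled libraries, against 7.77 and 7.29 CPM in the controls (-0.46 ± 0.20, adjusted p = 0.0756). Its value was -0.52 without control 2 and -0.41 without control 1. EEF1AKMT2 had 8.54 and 9.24 CPM in the BRG1-labelled libraries, against 10.4 and 9.53 CPM in the controls (-0.16 ± 0.17, adjusted p = 0.467), and its value was 0.06 with library size alone. The release factors did not pass. ETF1, which reads stop codons, had 146 and 139 CPM in the BRG1-labelled libraries and 149 and 125 CPM in the controls (0.06 ± 0.11, adjusted p = 0.707), and GSPT1, its GTPase partner, had 165 and 166 CPM in the BRG1-labelled libraries, against 196 and 183 CPM in the controls (-0.20 ± 0.10, adjusted p = 0.118). Without control 1 the values were -0.16 for GSPT1 and 0.19 for ETF1, and without control 2 they were -0.26 and -0.08. ETF1 passed as higher with library size alone (0.28, adjusted p = 0.0441).

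**Figure D5:**
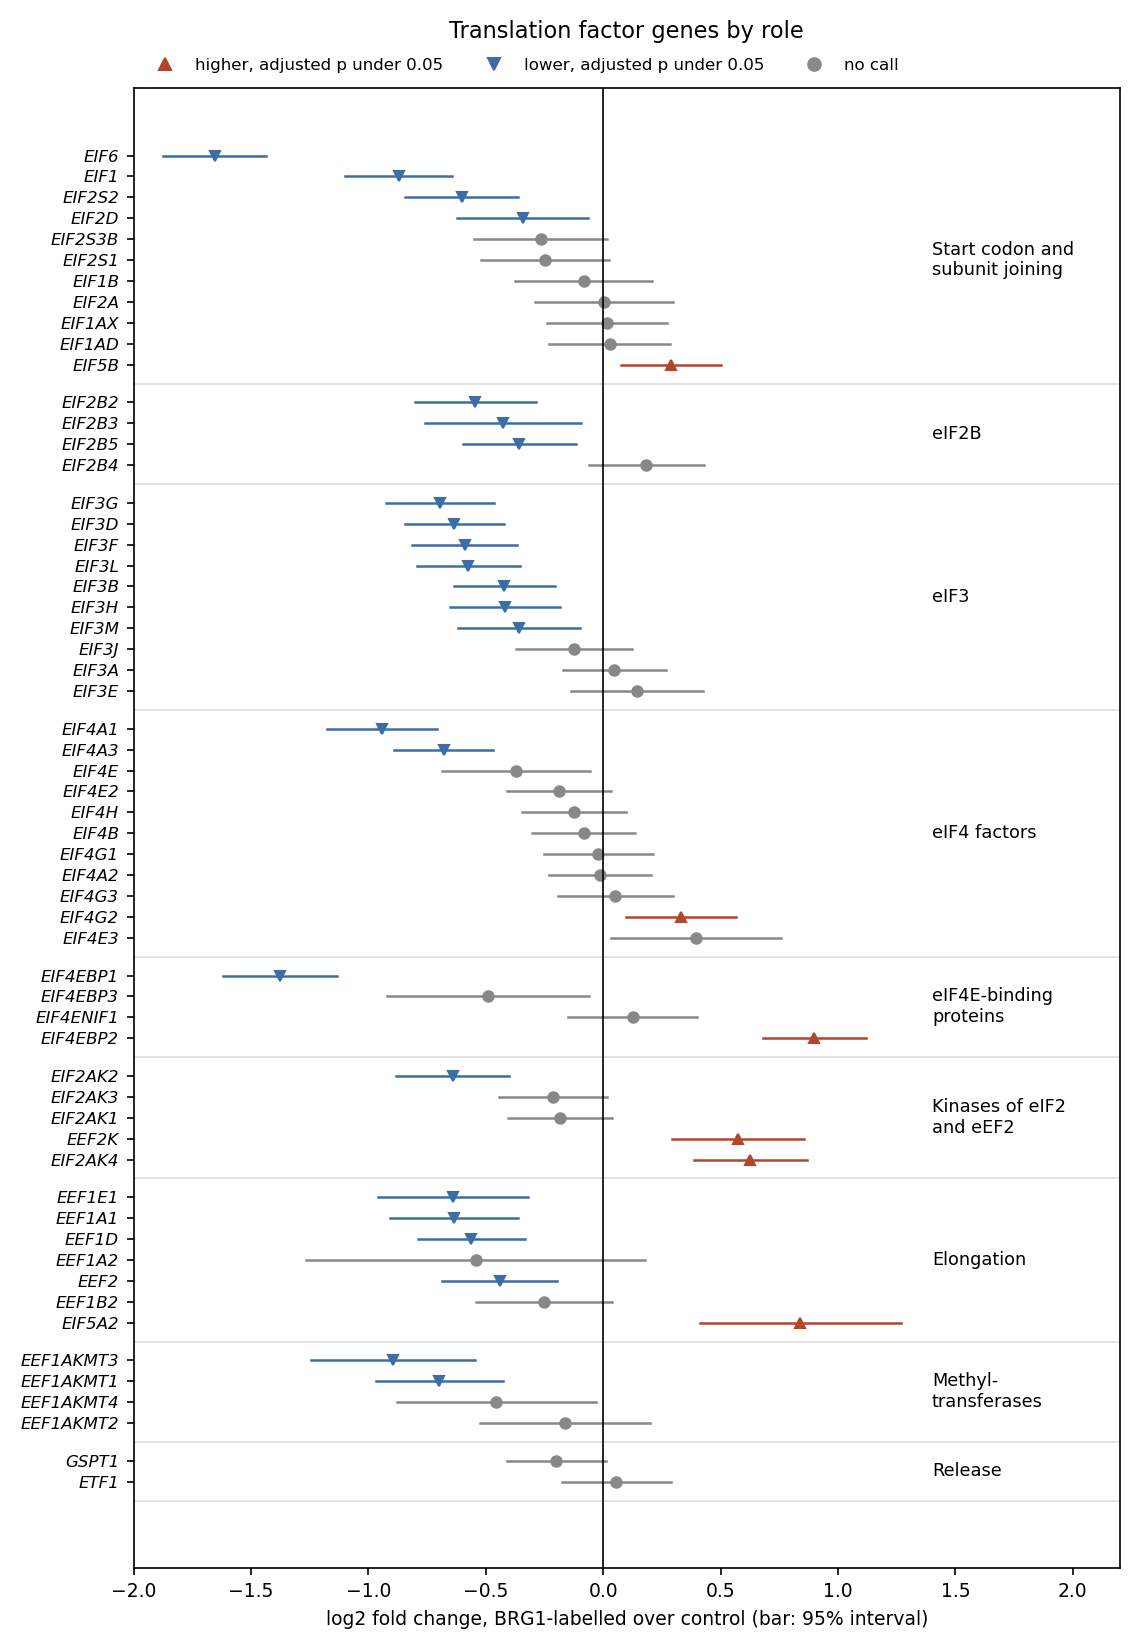
Log2 fold change of the BRG1-labelled libraries over the controls for the 58 genes tested, grouped by role, with 95% intervals (bars). Triangles mark genes past an adjusted p of 0.05, pointing up for the 6 higher and down for the 24 lower genes, and circles mark the 28 others. EIF6 lies lowest at -1.65 and EIF4EBP2 highest at 0.90, and eIF3 genes run from -0.69 to 0.14.

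Of the 30 calls, 17 held their direction and stayed past the threshold in all 13 alternative settings. They comprised 14 lower genes (EIF6, EIF1, EIF2S2, EIF2B2, EIF3D, EIF3F, EIF3G, EIF4A1, EIF4A3, EIF4EBP1, EIF2AK2, EEF1D, EEF1AKMT1 and EEF1AKMT3) and 3 higher genes (EIF4EBP2, EIF2AK4 and EIF5A2). The share of calls kept over all genes is not given here, so 17 of 30 is a description of these genes alone. Gene span in the genome moved with the log2 fold change among translation factor genes as it did among all genes (Spearman correlation 0.34 over the 56 genes with a span and 0.29 over 11318 genes; these points share the 4 libraries). The median span was 20504 bases for lower, 50452 bases for higher and 29632 bases for the genes without a call. After removal of that trend 27 of 56 genes were lower and 6 higher, where 27.3% and 19.4% of all genes with a span were.

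Genes outside the symbol rule that act on the same steps were listed from their textbook roles. Of 26 other translation factors and modifiers tested 9 fell and 2 rose (23.6% and 21% of all genes did), with a median of -0.19. With library size alone the median was 0.04, and 5 fell and 6 rose. Under that scaling the median of all genes was 0.24, and 14.6% of them fell and 33% rose. Fewer passed without BRG1-labelled library 1 or 2, as held for all genes tested, and the median was then -0.20 or -0.15. PELO, which rescues stalled ribosomes, had 30.4 and 28.9 CPM in the BRG1-labelled libraries, against 70.1 and 63.8 CPM in the controls (-1.17 ± 0.11, adjusted p = 8.44e-07). DHPS and DOHH, the enzymes that make hypusine on eIF5A proteins, both fell. DHPS had 10.8 and 13.7 CPM in the BRG1-labelled libraries, against 28.6 and 24.7 CPM in the controls (-1.12 ± 0.16, adjusted p = 3.88e-05), and DOHH had 9.77 and 9.11 CPM in the BRG1-labelled libraries, against 20.7 and 21.9 CPM in the controls (-1.17 ± 0.15, adjusted p = 1.37e-05). EIF5A2, the less common of the proteins that carry hypusine, rose, as given above. EIF5A was not analysed here.

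Of 27 genes of mTORC1 signalling, the pathway that controls the 4E-BP proteins, 11 fell and 6 rose, where 23.6% and 21% of all genes did. With library size alone 7 fell and 7 rose, and the median was 0.15 instead of -0.08. Under that scaling the median of all genes was 0.24 instead of 0.02, and 14.6% of them fell and 33% rose. DDIT4, an inhibitor of mTORC1 induced by stress, had 128 and 137 CPM in the BRG1-labelled libraries, against 397 and 356 CPM in the controls (-1.51 ± 0.11, adjusted p = 4.30e-08). SESN3, a sestrin that restrains mTORC1, had 49.8 and 44.3 CPM in the BRG1-labelled libraries, against 14.5 and 16.6 CPM in the controls (1.60 ± 0.13, adjusted p = 2.07e-07). LAMTOR1, which anchors the pathway at the lysosome, had 70.1 and 68.6 CPM in the BRG1-labelled libraries, against 154 and 143 CPM in the controls (-1.10 ± 0.10, adjusted p = 6.29e-07). MTOR itself had a log2 fold change of 0.00 ± 0.12 (95% interval -0.25 to 0.26, adjusted p = 0.977). Fewer of these genes passed as lower without BRG1-labelled library 1 or 2, as held for all genes tested. Their median was then -0.13 or -0.07.

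Of 8 genes that act on the eIF2 kinases or in the stress response they start, 4 fell and 1 rose, where 23.6% and 21% of all genes did. ATF4, the transcription factor whose message is translated when eIF2 is phosphorylated, had 477 and 493 CPM in the BRG1-labelled libraries, against 944 and 803 CPM in the controls (-0.85 ± 0.11, adjusted p = 2.71e-05). PPP1R15A, which brings a phosphatase to eIF2, had 71.3 and 71.4 CPM in the BRG1-labelled libraries, against 128 and 131 CPM in the controls (-0.86 ± 0.10, adjusted p = 6.08e-06). DDIT3, a transcription factor of prolonged stress, had 23.2 and 23.9 CPM in the BRG1-labelled libraries, against 48.5 and 44.7 CPM in the controls (-0.98 ± 0.12, adjusted p = 9.26e-06). The fourth gene that fell was DNAJC3, which inhibits PERK and PKR (-0.40 ± 0.10, adjusted p = 0.00461). After removal of the span trend ATF4 was at -0.50 and PPP1R15A at -0.55, both past the threshold. The rise was that of PPP1R15B (0.34 ± 0.11, adjusted p = 0.0206), which was lost without BRG1-labelled library 1 (adjusted p = 0.336) or library 2 (adjusted p = 0.0886).

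Of 9 factors of mitochondrial translation 2 fell and 1 rose, where 23.6% and 21% of all genes did. Their median was -0.26, and -0.11 without control 1. With library size alone it was -0.04, and 1 fell and 2 rose. Under that scaling the median of all genes was 0.24, and 14.6% of them fell and 33% rose. TUFM, the mitochondrial tRNA carrier, had 84.0 and 84.8 CPM in the BRG1-labelled libraries, against 116 and 123 CPM in the controls (-0.50 ± 0.10, adjusted p = 0.000785), a call lost without BRG1-labelled library 1 (-0.49, adjusted p = 0.0510) and after removal of the span trend (-0.20, adjusted p = 0.0967). MRRF, the ribosome recycling factor, had 14.0 and 12.2 CPM in the BRG1-labelled libraries, against 22.1 and 17.8 CPM in the controls (-0.61 ± 0.16, adjusted p = 0.00517), a call lost without BRG1-labelled library 2 (adjusted p = 0.08). MTIF2, the initiation factor that brings the first tRNA in mitochondria, had 17.3 and 17.7 CPM in the BRG1-labelled libraries, against 12.1 and 9.94 CPM in the controls (0.67 ± 0.15, adjusted p = 0.00256). The median of this list was -0.42 without control 2, and -0.19 or -0.26 without BRG1-labelled library 1 or 2.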

How the data were processed

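The authors deposited 1 table of whole-number read counts per Ensembl gene for each of the 4 libraries, not normalized. FastQC, STAR, SAMtools, Cufflinks, DESeq2 and edgeR are named, with the pig build Sscrofa11.1, per the submitters' processing notes; the counter, strand setting and annotation release are not given in the sources used here. Closing rows that name no gene were left out of library sizes. A filter (filterByExpr, minimum count 10 and total 15) and TMM scaling preceded testing in R 4.3.3 with edgeR 4.0.16 (quasi-likelihood F test; log2 fold changes with a prior count of 0.125), with Benjamini-Hochberg adjustment across the 14617 genes kept. SE is the unshrunk log2 fold change over the square root of F. The fit was tested on simulated data. Alternatives used DESeq2 1.42.0 and limma 3.58.1.

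Titles gave the groups. Replicates differed by more than counting noise (chi-square per degree of freedom 5.34 in the BRG1-labelled libraries and 40.1 in controls). Gene spans and positions were taken by symbol from RefSeq on Sscrofa11.1, for 96.6% of the translation factor genes tested and 77.4% of all genes tested; the trend with span was removed by a loess curve per library. EIF5, EIF5A, EIF3C, EIF3K, EIF2B1, EEF1G and EEF2KMT, and promoter and protein sequences, were not analysed here. Genes given with values in every library follow a rule: up to 4 genes of each role with the smallest adjusted p, all 4E-BP genes and EIF2AK kinases, the 5 with the most reads, and those past 2-fold; from other lists, 3 genes each. Values of EIF1B, EIF2D, EIF2S1, EIF2S3B, EIF3A, EIF3E, EIF4A2, EIF4E3, EEF1A2 and EEF1B2, and those of EIF3I, MTOR, DNAJC3 and PPP1R15B, were added after they were seen. The genes, lists and pairs were chosen with earlier results of these data known.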

Additional observations from a re-analysis of the deposited data

How the results depend on the processing

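With scaling by library size alone 12 of the 58 translation factor genes were higher, where 33% of all genes were. The median of the 58 was -0.032. The settings that left out 1 library gave 3 to 11 higher genes, 15 to 36 lower genes and medians from -0.46 to -0.16; in such a fit the lone library is assumed to vary like the other group. In the other settings (DESeq2 size factors, no filter, a minimum count of 50, DESeq2, limma-voom, an adjusted p of 0.01, the replicate block and the span trend removed) the higher genes numbered 4 to 6 and the lower ones 20 to 28, with medians from -0.28 to -0.23. Of all genes, between 14.1% and 24.8% were higher and between 17.8% and 27.3% lower in those settings. Same-numbered libraries did not deviate together (correlation -0.04 between BRG1-labelled library 1 and control 1). With 2 libraries a group this is a single correlation, which cannot show whether the numbers pair the samples. With the replicate block 6 genes were higher and 26 lower (median -0.25), where 21.8% and 24% of all genes were. EIF4G2 then did not pass (adjusted p = 0.0632), and EIF4E (adjusted p = 0.015), EIF4EBP3 (adjusted p = 0.0266) and EIF4E3 (adjusted p = 0.0337) did. Scaling by library size alone raised the median over all genes by 0.23. Genes outside the naming rule, such as EIF4A2 (-0.01 with TMM) and EIF1B (-0.08), are not in the list that follows. Among genes named by the rule that did not pass with all libraries and TMM scaling, 5 changed sign with library size alone. They were EIF4G1 (0.20), EIF2AK3 (0.0099), EIF2AK1 (0.041), EEF1AKMT2 (0.063) and GSPT1 (0.027). EIF4G1 also changed sign with a minimum count of 50 (0.0081), with the span trend removed (0.0038) and without control 2, as did ETF1 without control 2. Across the settings without 1 library EIF4G1 ran from -0.11 to 0.055 and ETF1 from -0.084 to 0.19. ETF1 passed as higher with library size alone (0.28, adjusted p = 0.0441). The cause was not tested. At this depth and with 2 libraries a group, the smallest change called was that of EIF5B (0.29).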
